A study of Mus musculus with 6 samples.

Results

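The genes described here make, sense and break down endocannabinoids: Cnr1, Dagla, Daglb, Mgll, Abhd6, Abhd12, Faah and Napepld. They were chosen by gene symbol, and all 8 were found among the 48709 gene rows of the count table and were among the 16699 genes tested. RNA was measured by bulk sequencing of polyadenylated RNA in cerebella of mice aged 40 weeks. The tested samples were 3 cerebella of SCA7 140Q/5Q knock-in mice (titled Kihet), which carry an Atxn7 allele with 140 glutamines and one with 5. They were set against 3 wildtype cerebella, and both groups are labelled C57BL/6J. SCA7, spinocerebellar ataxia type 7, is an inherited polyglutamine disease in which Purkinje cells are affected. The labels do not say whether each sample is a separate animal or a pool, so p-values measure only the spread between these samples, which may be in part technical.

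In the cerebellum, strong input to a Purkinje cell activates phospholipase C, which makes diacylglycerol. Diacylglycerol lipase turns it into 2-arachidonoylglycerol (2-AG), which travels back across the synapse to the CB1 receptor on parallel fibres, climbing fibres and interneuron terminals and lowers transmitter release. Monoacylglycerol lipase is the main enzyme that ends the 2-AG signal in brain. Anandamide, the other main endocannabinoid, belongs to the N-acylethanolamines and is broken down by fatty acid amide hydrolase.

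The knock-in libraries held between 34630391 and 39826478 counts and the wild-type libraries between 39528292 and 49127673. Each member had at least 527 counts in every library. Purkinje cell markers were detected in all libraries, with a summed level of 9338 to 11178 CPM, the count scaled to a common library size with TMM factors, in knock-in and 14243 to 15990 CPM in wild type. Granule neuron markers summed to 5888 to 6946 CPM in knock-in and 7362 to 8136 CPM in wild type. Single libraries stood apart. Brainstem markers summed to 64.5, 14.1 and 42.3 CPM in knock-in replicates 1, 2 and 3, against 15.7, 21.4 and 17.3 CPM in wild-type replicates 1, 2 and 3. Choroid plexus markers summed to 278, 27.2 and 1316 CPM in knock-in replicates 1, 2 and 3, against 531, 507 and 1905 CPM in wild-type replicates 1, 2 and 3. Wild-type replicate 1 had relatively low counts for GC-rich genes, with a Spearman rho across genes of -0.54 between GC content and its deviation from the mean of the 6 libraries. That rho lay between -0.001 and 0.31 in the knock-in libraries and was 0.06 and 0.03 in the other wild-type libraries. Genes are not independent replicates, and this rho is a description. Atxn7 itself had 22.4, 24.0 and 22.1 CPM in knock-in and 25.9, 26.2 and 22.6 CPM in wild type. The counts hold both alleles of the gene together and give no check of which mice carried the knock-in allele.

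No member passed the test at an adjusted p at or under 0.05 (edgeR's quasi-likelihood test with Benjamini-Hochberg adjustment over all 16699 genes), where 1.9% of all tested genes passed, 1.28% lower and 0.629% higher. The receptor gene Cnr1 and the synthase gene Dagla had the lowest fold changes of the 8, and the unadjusted p was at or under 0.05 for these 2, both lower, where the same held for 8.26% of all tested genes in that direction. The other 6 members had log2 fold changes between -0.10 and 0.07. The median log2 fold change was -0.08 over the members and 0.01 over all genes tested. DESeq2 called 2 of the members, Cnr1 and Dagla, where it called 3.12% of all tested genes lower, and limma-voom called 0.

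**Figure D1:**
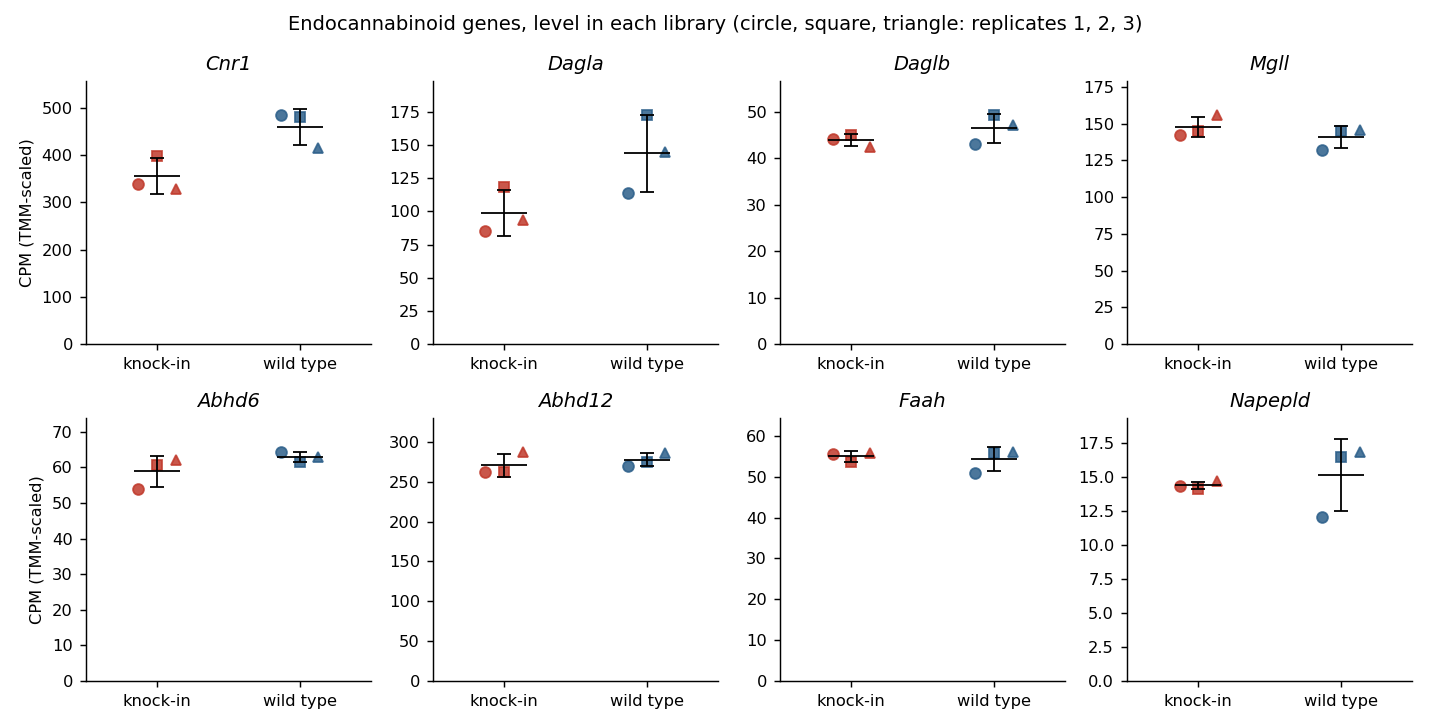
Level of each member in CPM (vertical axes, from 0) in the 3 knock-in and the 3 wild-type libraries, with the mean and SD of each group as a bar and whiskers. The groups are separate for Cnr1, at 329 to 399 CPM in knock-in and 415 to 484 CPM in wild type, and overlap for the other members.

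Cnr1 encodes CB1, the G protein-coupled receptor of the brain on which 2-AG and anandamide act (ENSMUSG00000044288, mm10 chr4:33924593-33948831, plus strand). It had 339, 399 and 329 CPM in knock-in replicates 1, 2 and 3, against 484, 480.3 and 415 CPM in wild-type replicates 1, 2 and 3. Every knock-in library lay below every wild-type library, and the nearest were knock-in replicate 2 and wild-type replicate 3. Groups that did not overlap in this direction were found for 11.5% of all tested genes. The means were 356 ± 37.9 CPM in knock-in and 459.9 ± 38.8 CPM in wild type (SD, n = 3 each), so that knock-in stood at 77.3% of wild type. The log2 fold change was -0.37 ± 0.10 (SE), with a 95% interval of -0.59 to -0.16, an unadjusted edgeR p of 0.00319 and an adjusted p of 0.0877, which missed the threshold. Without knock-in replicate 2 the log2 fold change was -0.47 and the edgeR adjusted p 0.0176, in a fit that called 3% of all tested genes lower, while without any one of the other libraries the adjusted p was above the threshold. Without knock-in replicates 1 and 3, which were the highest in brainstem markers, it was -0.19 (adjusted p 0.67), a setting chosen after the data were seen.

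CB1 is made by granule neurons and by interneurons of the cerebellar cortex, and in bulk tissue fewer cells of a type and less RNA per cell cannot be told apart. Of 14 granule neuron markers 12 had a negative log2 fold change, and the median of the list was -0.16. EdgeR called 3 of the 14, all lower, where it called 1.28% of all tested genes lower. The called ones were Cbln3 (1289 CPM in knock-in and 1778 CPM in wild type), Chn2 and Grm4. Of 11 cortical interneuron markers 5 were lower at an unadjusted edgeR p at or under 0.05, as were 8.26% of all tested genes. Of these 11 markers edgeR called 0 and DESeq2 3, with a median of -0.25. Their summed level was 1585 to 1682 CPM in knock-in and 1750 to 1922 CPM in wild type. The part of these levels in the values of Cnr1 was not tested. Without single libraries the granule neuron count lay between 0 and 4.

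The RefSeq promoter windows of Cnr1 and Mgll are shown because these genes are the receptor of the pathway and the main enzyme ending its signal, and the groups were separate for the first and overlapped for the second. Each window runs from 250 bases before to 50 bases after a RefSeq start site (GRCm38.p6, the build also called mm10), and capitals mark GC boxes, GGGCGG or its reverse complement CCGCCC. Windows were found for 6 of the 8 members, 10 in all. Cnr1 has 3 of them and Mgll 2, and the most upstream one of each is printed.
Cnr1, chr4:33924014-33924313, plus strand: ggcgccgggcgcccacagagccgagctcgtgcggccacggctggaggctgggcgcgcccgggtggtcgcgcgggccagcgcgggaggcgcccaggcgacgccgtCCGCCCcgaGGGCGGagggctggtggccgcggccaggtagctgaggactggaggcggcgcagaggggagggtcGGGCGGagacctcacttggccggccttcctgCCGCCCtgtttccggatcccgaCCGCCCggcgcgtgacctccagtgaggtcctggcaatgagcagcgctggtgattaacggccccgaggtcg
Mgll, chr6:88724162-88724461, plus strand: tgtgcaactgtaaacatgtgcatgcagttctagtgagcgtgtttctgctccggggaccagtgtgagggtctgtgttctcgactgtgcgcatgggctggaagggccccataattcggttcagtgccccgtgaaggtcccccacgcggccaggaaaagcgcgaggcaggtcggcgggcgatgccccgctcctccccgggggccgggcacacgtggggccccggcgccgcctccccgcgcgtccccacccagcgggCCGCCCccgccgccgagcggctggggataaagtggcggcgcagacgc
The printed Cnr1 window held 5 GC boxes and 40 CG dinucleotides, while the other 2 windows of Cnr1 held 0 GC boxes, with 33 and 5 CG dinucleotides. The printed Mgll window held 1 GC box and 32 CG dinucleotides, and the other one 1 GC box and 42 CG dinucleotides. A GC box was present in 6 of the 10 windows, in at least 1 window each of Cnr1, Mgll, Abhd6 and Faah, and in 35.7% of all 32851 windows. The windows of Abhd6 overlap each other and hold the same GC box, which is counted in both. The letters TATAAA, searched on both strands, were in 0 of the 10 windows of the members and in 13.6% of all windows. AGGTCA, a motif of orphan nuclear receptors, was found on either strand in the printed Cnr1 window and in no other window of the members, and in 16.3% of all windows. It does not overlap the capitals. These are matches of letters and not measured binding sites.

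Dagla encodes diacylglycerol lipase alpha, which makes most of the 2-AG used in retrograde signalling in brain and sits in Purkinje cell dendrites near parallel fibre inputs (ENSMUSG00000035735, mm10 chr19:10245265-10304877, minus strand). It had 85.5, 119 and 93.2 CPM in knock-in replicates 1, 2 and 3, against 114, 172 and 145 CPM in wild-type replicates 1, 2 and 3. The groups overlapped in 1 place, since knock-in replicate 2 lay above wild-type replicate 1. The means were 99.1 ± 17.3 CPM in knock-in and 144 ± 29.1 CPM in wild type (SD, n = 3 each), so that knock-in stood at 68.9% of wild type. The log2 fold change was -0.54 ± 0.16 (SE), with a 95% interval of -0.88 to -0.19, an unadjusted edgeR p of 0.00579 and an adjusted p of 0.113. It was the lowest log2 fold change of the 8 members, and Dagla had the widest spread of the 8 in both groups, with a coefficient of variation of 17.4% in knock-in and 20.2% in wild type.

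Dagla has a GC content of 58.8%, at the 92.9th percentile of the tested genes, and wild-type replicate 1 was the library with low counts for GC-rich genes. Deviations also followed exon length, with a Spearman rho across genes of -0.08, 0.14 and -0.43 in knock-in replicates 1, 2 and 3 and 0.09, 0.28 and -0.01 in wild-type replicates 1, 2 and 3. The joint log2 offset of Dagla for GC content and length was 0.01, 0.14 and 0.12 in knock-in and -0.30, 0.04 and -0.003 in wild type. With offsets for GC content and exon length, Dagla stood at 85.1, 108 and 85.8 CPM in knock-in and 140.3, 168 and 145 CPM in wild type, and the groups no longer overlapped. On offset levels, groups that did not overlap in this direction were found for 13.2% of all tested genes. In that fit the log2 fold change was -0.70 ± 0.10 with an edgeR adjusted p of 0.00544, and 4.33% of all tested genes were called, 3.06% lower. Without knock-in replicate 2 and with no offsets it was -0.69 with an adjusted p of 0.0224. Without wild-type replicate 2, the highest library, it was -0.39 with an adjusted p of 0.27. Without knock-in replicates 1 and 3 it was -0.26 (adjusted p 0.70).

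The list of Purkinje cell markers had 14 of 14 members with a negative log2 fold change, with a median of -0.52. Of these, 9 were called lower, where edgeR called 1.28% of all tested genes lower. Rgs8, a regulator of G protein signalling, had 1113 CPM in knock-in and 2240 CPM in wild type, and Gng13 and Doc2b were also called. The mean log2 level of the 14 markers was 8.05, 8.31 and 8.23 in knock-in replicates 1, 2 and 3 and 8.71, 8.74 and 8.62 in wild-type replicates 1, 2 and 3. Knock-in replicate 2 was the highest knock-in library in these markers, in Dagla and in Cnr1. The part of this list's level in the value of Dagla was not tested. The count of called markers lay between 2 and 9 without single libraries.

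Daglb encodes the other diacylglycerol lipase, beta, which has a larger part in microglia and peripheral macrophages (ENSMUSG00000039206, mm10 chr5:143464584-143505942, plus strand). It had 44.2, 45.1 and 42.6 CPM in knock-in and 43.1, 49.3 and 47.1 CPM in wild type. The groups overlapped, and the log2 fold change was -0.08 ± 0.08 with a 95% interval of -0.26 to 0.10 (edgeR adjusted p 0.64). Its exons share 2309 bases, 24.1% of their length, with exons of Rac1 on the other strand. Whether strand was used in the counting is not stated, so the counts of Daglb are uncertain. Of 11 microglia markers edgeR called 0 and DESeq2 3, with a median of 0.06. At an unadjusted edgeR p at or under 0.05, 1 was lower and 4 were higher. At that p 8.26% of all tested genes were lower, and the share that was higher is not reported here.

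Napepld encodes the phospholipase D that releases anandamide and other N-acylethanolamines from their membrane precursors (ENSMUSG00000044968, mm10 chr5:21662901-21701396, minus strand). It had 14.3, 14.2 and 14.7 CPM in knock-in and 12.1, 16.5 and 16.8 CPM in wild type. The knock-in libraries lay between the lowest and the other wild-type libraries, with a log2 fold change of -0.07 ± 0.13 and a 95% interval of -0.37 to 0.22 (edgeR adjusted p 0.82). Without wild-type replicate 1, the lowest library, it was -0.22 (unadjusted p 0.0464, edgeR adjusted p 0.39).

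Of the enzymes that break down 2-AG, Mgll encodes monoacylglycerol lipase, which in the cerebellum is found in parallel fibre terminals and Bergmann glia (ENSMUSG00000033174, mm10 chr6:88724412-88828360, plus strand). It had 142, 145 and 156 CPM in knock-in and 132, 145 and 145 CPM in wild type. The groups overlapped. The log2 fold change was 0.07 ± 0.08 with a 95% interval of -0.10 to 0.24 (edgeR adjusted p 0.68), and its sign turned with the GC and length offsets, at -0.01. The antisense gene Gm26588 shares 167 exon bases with it.

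Abhd6 encodes a serine hydrolase of the postsynaptic membrane that degrades a further share of 2-AG (ENSMUSG00000025277, mm10 chr14:8002902-8056763, plus strand). It had 54.0, 60.7 and 62.0 CPM in knock-in and 64.3, 61.6 and 63.0 CPM in wild type, with a log2 fold change of -0.10 ± 0.08 and a 95% interval of -0.28 to 0.08 (edgeR adjusted p 0.57). Knock-in replicate 1 was the lowest library, and knock-in replicate 3 lay above wild-type replicate 2. Abhd6 is the one member on the chromosome of Atxn7, 5.90 Mb away from it.

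Abhd12 encodes a hydrolase that accounts for a minor share of 2-AG breakdown and also degrades lysophosphatidylserine, and its loss in humans causes a neurodegenerative disease with ataxia (ENSMUSG00000032046, mm10 chr2:150832493-150904741, minus strand). It had 263, 262 and 287 CPM in knock-in and 270.3, 275 and 286 CPM in wild type. The groups overlapped, with a log2 fold change of -0.04 ± 0.07 and a 95% interval of -0.20 to 0.13 (edgeR adjusted p 0.84). With library sizes alone the sign turned, at 0.04. With the GC and length offsets it was -0.13, and the offset levels were 259, 261 and 263 CPM in knock-in and 293, 282 and 284 CPM in wild type, groups that did not overlap, as for 13.2% of all tested genes on offset levels (edgeR adjusted p 0.16).

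Faah encodes fatty acid amide hydrolase, which breaks down anandamide and in the cerebellum is found in Purkinje cell bodies (ENSMUSG00000034171, mm10 chr4:115967145-116017926, minus strand). It had 55.7, 53.5 and 55.7 CPM in knock-in and 51.0, 55.9 and 56.0 CPM in wild type. The knock-in libraries lay within the wild-type range, and the log2 fold change of 0.02 ± 0.08 had the smallest size of the 8 (95% interval -0.15 to 0.19, edgeR adjusted p 0.93). Its sign turned without wild-type replicate 1, at -0.04.

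**Figure D2:**
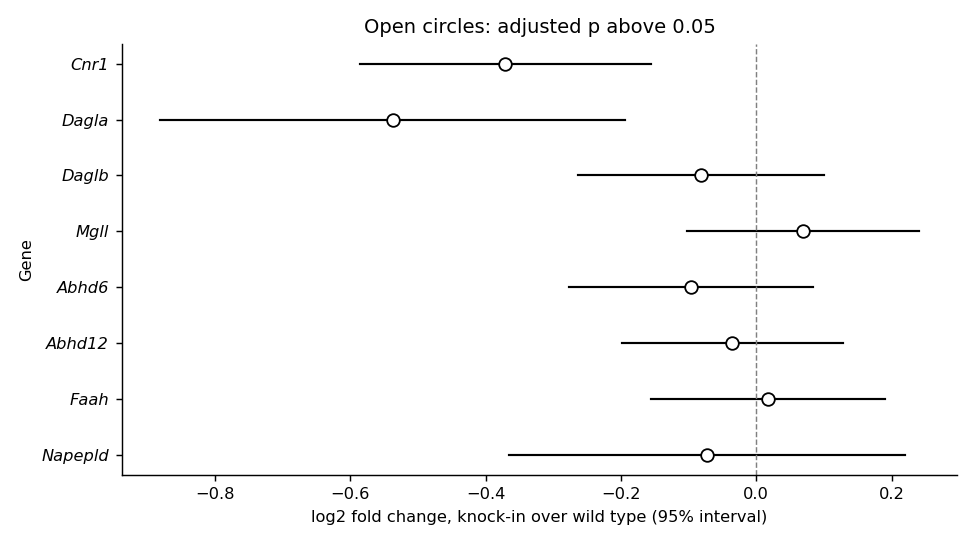
Log2 fold change of each member, knock-in over wild type (horizontal axis), with its 95% interval as a line and open circles for an adjusted p above 0.05. The intervals of Cnr1, -0.59 to -0.16, and Dagla, -0.88 to -0.19, lie below 0 before adjustment for the number of genes, and those of the other members include 0.

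Levels can be compared between genes after division by exon length. Abhd12 was the most abundant member at 95.9 ± 5.09 CPM per kilobase in knock-in and 98.3 ± 2.91 in wild type (SD, n = 3 each), followed by Cnr1 at 55.2 ± 5.88 in knock-in and 71.4 ± 6.02 in wild type. Mgll, Abhd6 and Dagla came next, with means over the 6 libraries of 28.4, 25.8 and 21.1 CPM per kilobase, and their ranges over the libraries overlapped. Faah at 6.97, Daglb at 4.73 and Napepld at 3.73 CPM per kilobase were the lowest, and the ranges of these 3 did not overlap with each other. The most abundant member was 26.01 times as abundant per kilobase as the least abundant one. The exon lengths are unions over the annotated transcripts, from 2.37 kb for Abhd6 to 9.57 kb for Daglb, and transcripts in use in the cerebellum may be shorter.

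**Figure D3:**
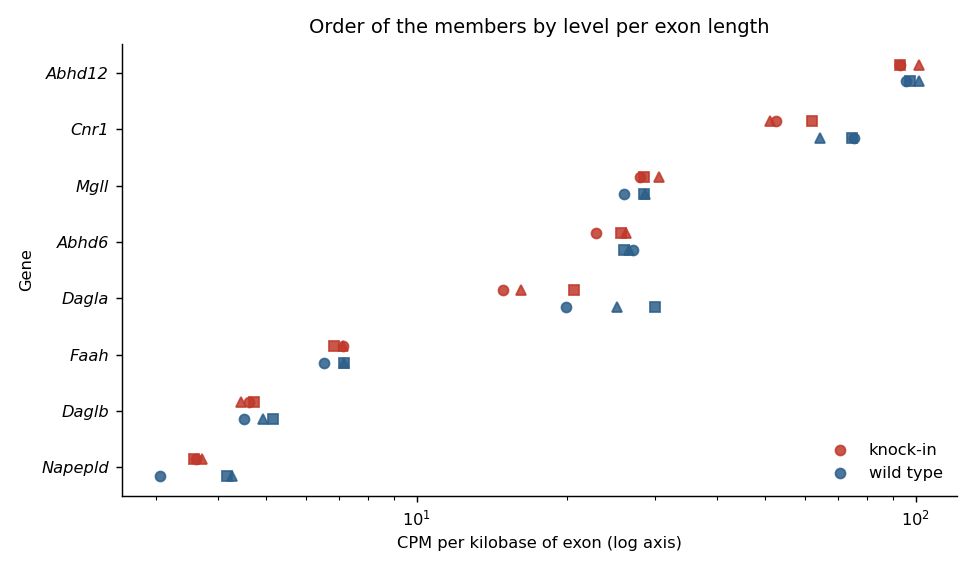
Level of each member in CPM per kilobase of exon (horizontal log axis), with knock-in libraries above wild-type libraries in each row and circles, squares and triangles for replicates 1, 2 and 3. The members run from Napepld at a mean of 3.73 to Abhd12 at 97.1 CPM per kilobase.

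Ratios of members within a library do not depend on the scaling between libraries. They do depend on the trends with GC content and exon length, and are given without offsets for these unless stated. The ratio of Dagla to Mgll, per kilobase, was 0.531, 0.721 and 0.529 in knock-in replicates 1, 2 and 3, against 0.765, 1.05 and 0.881 in wild-type replicates 1, 2 and 3. The synthase was thus lower relative to the hydrolase in every knock-in library, with a mean log2 ratio of -0.77 ± 0.26 in knock-in and -0.17 ± 0.23 in wild type (SD, n = 3 each). The ratio of Dagla to a single other gene was lower without overlap for 37% of the 16698 other tested genes, so a ratio of this kind is common for Dagla. Its ratio to Daglb was 3.22, 4.38 and 3.65 in knock-in and 4.41, 5.83 and 5.12 in wild type, and the groups were nearly touching.

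The ratio of Cnr1 to Dagla was 3.53, 3.002 and 3.15 in knock-in and 3.78, 2.48 and 2.55 in wild type, and the groups overlapped. Wild-type replicate 1 had the highest ratio of the 6. In that library the log2 offset for GC content and length was 0.09 for Cnr1 and -0.30 for Dagla. With the offsets, Cnr1 stood at 342, 399 and 352 CPM in knock-in and 455, 472 and 415 CPM in wild type. On offset levels the ratio of Cnr1 to Dagla was higher in every knock-in library. The share of other ratios for which this holds was not computed, and the cause was not tested. Abhd6 to Mgll was 0.815, 0.897 and 0.855 in knock-in and 1.05, 0.912 and 0.929 in wild type. Abhd12 to Mgll was 3.32, 3.24 and 3.32 in knock-in and 3.68, 3.42 and 3.54 in wild type. Without offsets, both were lower in every knock-in library, by a mean of 0.17 and 0.11 on the log2 scale. The same held for 20.3% and 16.8% of the ratios of Abhd6 and Abhd12 to other tested genes. With the GC and length offsets, Abhd6 and Mgll stood at 63.2 and 139.8 CPM in knock-in replicate 2. They stood at 61.3 and 146.3 CPM in wild-type replicate 1. On offset levels the groups overlapped for Abhd6 to Mgll and did not for Abhd12 to Mgll. The share of other ratios of Abhd12 without overlap on offset levels was not computed. Napepld to Faah was 0.509, 0.524 and 0.522 in knock-in and 0.470, 0.585 and 0.595 in wild type, and the groups overlapped. No p is given for these ratios, since the smallest that a two-sided exact permutation test of 3 against 3 samples allows is 0.10.

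**Figure D4:**
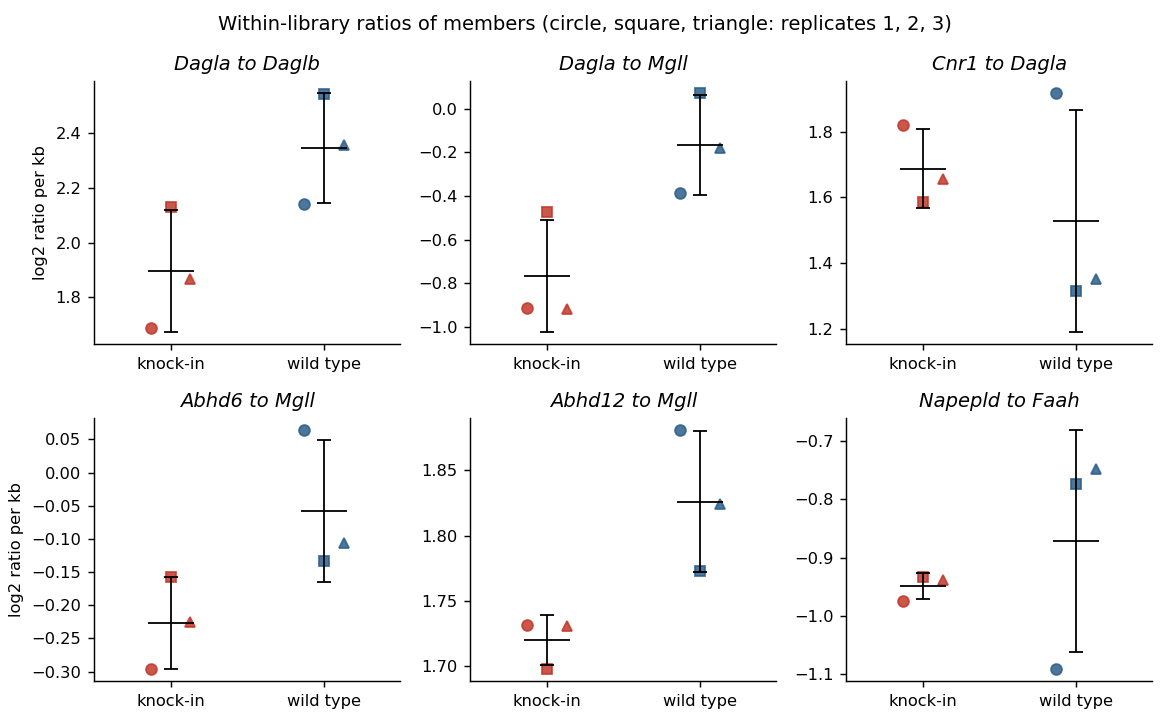
Log2 ratio of pairs of members per kilobase of exon (vertical axes, each with its own range) in knock-in and wild-type libraries, with the mean and SD of each group. The groups are separate for Dagla to Daglb, Dagla to Mgll, Abhd6 to Mgll and Abhd12 to Mgll, and overlap for Cnr1 to Dagla and Napepld to Faah. The ratios shown use no offsets for GC content or exon length.

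Across the 6 libraries the members did not vary as one group. The Pearson correlation of log2 CPM was 0.88 between Faah and Napepld, 0.87 between Dagla and Daglb and 0.78 between Cnr1 and Dagla, and it was -0.65 between Cnr1 and Mgll. Among the 10277 other genes whose mean reached 10 CPM, those most like Cnr1 were Rflnb, Cmya5 and Plcb4 (Pearson r of 0.998, 0.997 and 0.996). For Dagla they included Rims4 and Kcnc1 (0.990 and 0.989), the last of which encodes a Kv3 potassium channel. For Mgll they were Babam1, Cuta and Dnal4 (0.997, 0.995 and 0.994). These values describe 6 libraries that share the difference between groups and between library compositions, and each was picked as the highest of a search over many genes.

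The next genes act upstream of 2-AG in the Purkinje cell, in its calcium and diacylglycerol signals. Of 19 genes on this postsynaptic route, 4 were called lower and 0 higher, where edgeR called 1.28% of all tested genes lower. A negative log2 fold change was found for 15 of the 19, with a median over the list of -0.27. Plcb3, a phospholipase C that makes diacylglycerol, fell to 44.3, 52.4 and 47.6 CPM in knock-in, against 76.0, 85.6 and 87.4 CPM in wild type (log2 fold change -0.79 ± 0.09, edgeR adjusted p 0.0037). Itpr1, the IP3 receptor that releases calcium from the endoplasmic reticulum, fell to 3195, 4110.4 and 2995 CPM in knock-in, against 5414, 5783 and 4829.8 CPM in wild type. In the 4 called genes every knock-in library lay below every wild-type library, as for 11.5% of all tested genes. The test that called them used these same values, so this separation is a description and adds no support.

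Gnaq, the G protein alpha subunit that activates phospholipase C, had a log2 fold change of -0.32 (edgeR adjusted p 0.10) and Plcb4, another phospholipase C, one of -0.34 (adjusted p 0.12). Camk2a, whose kinase phosphorylates and inhibits diacylglycerol lipase alpha, had a log2 fold change of -0.37 (adjusted p 0.12). Gnaq, Plcb4 and Camk2a were named after their values were seen. Over the 19 route genes, the groups did not overlap for 9 lower and 1 higher. Over all tested genes this held for 11.5% and 12.3%. Itpr1 is also among the Purkinje cell markers. The count of 4 was 1 without any one wild-type library or knock-in replicate 1, 2 without knock-in replicate 3, 9 without knock-in replicate 2 and 0 without knock-in replicates 1 and 3. It was 7 with DESeq2, which called 3.12% of all tested genes lower. The fit without knock-in replicate 2 called 3% of all tested genes lower.

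**Figure D5:**
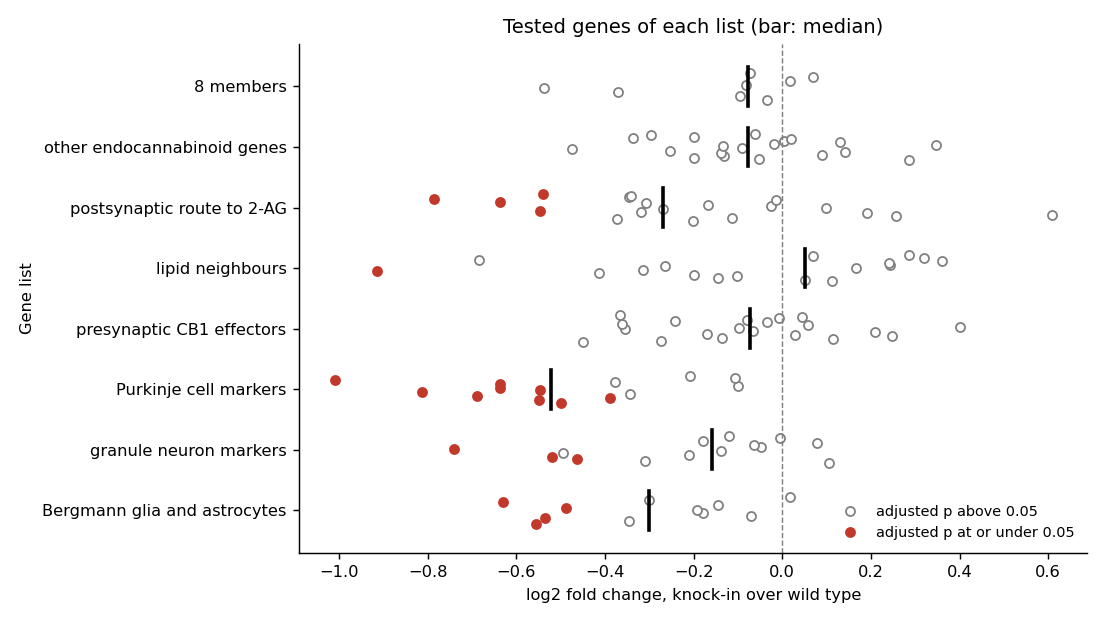
Log2 fold change, knock-in over wild type (horizontal axis), of every tested gene of 8 lists, with filled points for an adjusted p at or under 0.05 and a bar at the median of each list. The members have a median of -0.08 and 0 filled points, against a median of -0.27 and 4 filled points for the postsynaptic route to 2-AG and -0.52 and 9 for the Purkinje cell markers.

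Of 25 further genes of endocannabinoids and N-acylethanolamines, 20 were tested and 0 were called, 2 being lower and 1 higher at an unadjusted edgeR p at or under 0.05, and DESeq2 called 1. Their median was -0.08. At that unadjusted p 8.26% of all tested genes were lower, and the share that was higher is not reported here. Gde1, a phosphodiesterase of an alternative route to anandamide, had 186, 181 and 212 CPM in knock-in and 213, 194 and 209.6 CPM in wild type. Abhd16a, a phosphatidylserine lipase, had 228, 247 and 273 CPM in knock-in and 191, 217 and 206 CPM in wild type, groups that did not overlap (log2 fold change 0.29 ± 0.09, edgeR adjusted p 0.13). Groups that did not overlap in this direction were found for 12.3% of all tested genes. Gpr55, Gpr18, Gpr119, Trpv1 and Plaat5 had too few counts to be tested. Cnr2, the CB2 receptor of immune cells, had 0.244 to 0.326 CPM in knock-in and 0.225 to 0.439 CPM in wild type.

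Of 18 genes of diacylglycerol and neighbouring lipids, 17 were tested and 1 was called, where 1.28% of all tested genes were called lower. This was Dgkh, a diacylglycerol kinase that turns diacylglycerol into phosphatidic acid, which fell to 12.0, 13.1 and 9.11 CPM in knock-in, against 22.1, 22.7 and 19.6 CPM in wild type. Its log2 fold change was -0.92 ± 0.14 (edgeR adjusted p 0.0131), and it was not called without knock-in replicate 1 or without wild-type replicate 1. Dgkz and Dgkd, the most abundant of the list per kilobase, had log2 fold changes of -0.26 and -0.10. The median of the list was 0.05.

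Of 20 genes through which CB1 acts at the terminal, 0 were called, 6 were lower and 3 higher at an unadjusted edgeR p at or under 0.05, and DESeq2 called 3. The median was -0.07. At that unadjusted p 8.26% of all tested genes were lower, and the share that was higher is not reported here. Adcy1, a calcium-stimulated adenylyl cyclase, had 1371, 1843 and 1180.2 CPM in knock-in and 1899, 2328 and 1773 CPM in wild type (adjusted p 0.17). Gnb1, a G protein beta subunit, had 586, 565 and 556 CPM in knock-in and 604, 631 and 593 CPM in wild type, with a log2 fold change of -0.10 (adjusted p 0.49). Every knock-in library of Gnb1 lay below every wild-type library, as for 11.5% of all tested genes.

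Among glial markers, 4 of 11 for Bergmann glia and astrocytes were called lower, with a median of -0.30, and Gja1, Aqp4 and A2m had the smallest adjusted p. Of 11 oligodendrocyte markers 2 were called lower, Ugt8a among them, with a median of 0.03. Over all tested genes, edgeR called 1.28% lower. Without single libraries the counts were 0 to 6 for the first list and 0 to 2 for the second. Of the 6 tested brainstem markers edgeR called 0 and DESeq2 1, and 4 were higher at an unadjusted edgeR p at or under 0.05, with a median of 2.05. Without knock-in replicate 2, 6 brainstem markers were called, and 2 without wild-type replicate 2. Of 8 choroid plexus markers edgeR called 0 and DESeq2 1, with 1 lower at that unadjusted p and a median of -0.94, knock-in replicate 2 being the lowest and wild-type replicate 3 the highest library in their sum. Of 6 endothelial markers edgeR called 0 and DESeq2 1, with 2 lower at that p and a median of -0.10. The 5 tested forebrain and the 5 blood markers had 0 called by either tool, 1 forebrain marker higher and 1 blood marker lower at that p, and medians of 0.34 and -0.22. The part of these markers in the members' values was not tested. At that unadjusted p 8.26% of all tested genes were lower, and the share that was higher is not reported here.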

How the data were processed

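The authors deposited a table of raw read counts for each Ensembl gene and sample. The submitters' processing notes name HTSeq 0.6.1, Bowtie2 2.1.0, TopHat2 2.0.14, bcl2fastq 2.17.1.14 and the build mm10. Libraries were stranded and polyA-selected, per the labels' protocols. No source used here names the annotation release or the strand setting of the counting. GENCODE M21 matched 48349 of 48709 identifiers.

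Counts were tested in R 4.3.3 with edgeR 4.0.16 (filterByExpr with minimum count 10 and minimum total count 15, TMM scaling, quasi-likelihood F test on genotype alone, Benjamini-Hochberg adjustment over all genes, threshold 0.05). SE is the absolute log2 fold change over the square root of F. Correlations used log2 of CPM plus 0.5. Alternatives included DESeq2 1.42.0 and limma-voom (limma 3.58.1).

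Members and lists were chosen with earlier results of these data known. The text names all 8 members, the called genes and the 2 most abundant genes per kilobase of each pathway list, up to 3 called genes per marker list, and the 3 genes most like Cnr1, Dagla and Mgll. Gnaq, Plcb4, Camk2a and Cnr2 were named after their values were seen. Some genes that the rule took are counted in their lists but not reported here. On simulated counts for this comparison, with 16468 genes run, 71% of 100 genes changed by 1.5-fold and 93% of 100 changed by 2-fold were called, and 3.53% of calls were false. Library pairs within a group differed by more than sampling noise (chi-square per degree of freedom 13.06 to 28.14).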

Additional observations from a re-analysis of the deposited data

How the results depend on the processing

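The count of called genes was 318 and that of called members 0. Alternatives with 0 called members were scaling by DESeq2 size factors, library size alone (513 genes, 190 lower and 323 higher, against 213 lower and 105 higher with TMM, and a median shift of all genes of 0.07) or upper quartile, a mean CPM of at least 1, limma-voom, robust estimation, the brainstem marker level as a covariate (3 genes), every single library left out except knock-in replicate 2, and, chosen after the data were seen, knock-in replicates 1 and 3 left out (23 genes, 1 knock-in sample whose spread is assumed to be that of wild type). Both Cnr1 and Dagla, 2 members, were called with no filter on low counts (1303 genes), DESeq2 (934) and voom with quality weights (746), and Dagla, 1 member, with GC and length offsets (722). At an adjusted p at or under 0.10, 721 genes and 1 member, Cnr1, passed. Leaving out single libraries gave 39 to 858 genes and 0 to 2 members, the highest of both without knock-in replicate 2.

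With the replicate number as a block, 2034 genes and 2 members, Cnr1 and Dagla, were called, and 1619 and 2 with the block and the offsets. The numbers are not shown to pair the samples: same-numbered deviations correlated at 0.00, 0.17 and 0.32. Knock-in replicates 2 and 3 correlated best with their own number, and knock-in replicate 1 with another, at 0.05.

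Cnr1 was negative in all 20 refits and called in 6, and Dagla negative in all and called in 7. The sign turned for Mgll with the offsets (-0.011, and -0.011 with the block added), for Abhd12 and Napepld with library size alone (0.039 and 0.0032) and for Faah with the brainstem covariate (-0.028), without knock-in replicates 1 and 3 (-0.0034) and without single libraries (-0.038 to 0.036, negative without wild-type replicate 1). The causes were not tested. With 3 samples a group, the intervals of the 6 members other than Cnr1 and Dagla include 0.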
